A study of Caenorhabditis elegans with 14 samples.

Results

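Insulin-like peptides are small secreted proteins that bind DAF-2, the only insulin/IGF-1 receptor of *C. elegans*. The worm genome carries an unusually large family of them, made mostly in neurons and also in the intestine and other tissues, and released from dense core vesicles. Some members activate DAF-2 and some antagonise it, and DAF-2 acts through the PI3 kinase AGE-1 and the AKT kinases to keep the FOXO transcription factor DAF-16 out of the nucleus, which sets dauer formation, stress resistance and adult lifespan. The genes described here were chosen by name alone: every gene of the expression matrix whose symbol starts with *ins-*, plus *daf-28*. This gave 40 genes (39 *ins-* genes and *daf-28*) of 41560.

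RNA sequencing was performed on whole animals of 2 strains, *spe-9* control animals and *mir-60;spe-9* double mutants. All animals carried *spe-9(hc88)*, a temperature-sensitive mutation that makes animals sterile by a sperm defect, and the double mutants also lacked *mir-60*, an intestinal microRNA, through the deletion allele *n4947*. Both strains were grown from eggs at 23.5 °C to young adulthood (Day 0), when 2 independent RNA isolations were made per strain. Further animals were then moved to plates with 5 mM paraquat (PQ), a superoxide generator. The study's lifespan assays also used 325 µM FUDR, a DNA synthesis inhibitor that blocks progeny. Its methods do not state whether the cultures for RNA had FUDR too. RNA was taken from 1 culture per strain at Day 7 and from the double mutants at Day 10. Per the study, Day 7 was near the median survival time of *spe-9* on PQ and Day 10 near that of the double mutants. At Day 7 the strains were therefore at unlike points of their survival. Age, PQ, any FUDR and the death of part of the animals cannot be told apart after Day 0. A difference between single later libraries has no replicate check.

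Values are FPKM, fragments scaled to transcript length and to the mapped fragments of the library, so that levels of different genes are set side by side per length, as far as the authors' correction for short coding lengths holds. The reads behind each value were estimated from the smallest steps in FPKM, and the number of reads on all 40 genes ranged from 1215 to 3903 per library, with depths of 0.863 to 1.09 relative to *spe-9* Day 0 replicate 1. Coding lengths of the members ranged from 204 to 657 bases with a median of 312, so that many values rest on few reads. In whole-animal RNA, fewer cells of a type and less RNA per cell cannot be told apart.

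Of the 40 genes, 34 were detected at an FPKM of at least 0.5 in at least 2 of the 7 libraries. The other 6 were *ins-9*, *ins-13*, *ins-15*, *ins-31*, *ins-32* and *ins-38*. *ins-38* was listed at 0 in every library, and among the other 5 the highest single value was 0.984 FPKM for *ins-31* in *mir-60;spe-9* Day 0 replicate 2. Just inside the rule were *ins-16*, with 0.521 FPKM from 1 read in a Day 0 double mutant library and 1.38 FPKM from 3 reads in *spe-9* Day 7, *ins-39*, with 0.551 and 0.567 FPKM in 1 Day 0 library of each strain and at most 0.110 FPKM in the others except for 2 values of 0, and *ins-33*, with 0.627 and 1.06 FPKM in the Day 0 double mutants. *ins-33*, a hypodermal gene repressed by LIN-14 in larvae, was at 0.433 and 0.228 FPKM in *spe-9* Day 0, at 0.398 in *mir-60;spe-9* Day 7 and at 0 in both *spe-9* Day 7 and *mir-60;spe-9* Day 10.

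**Figure D1:**
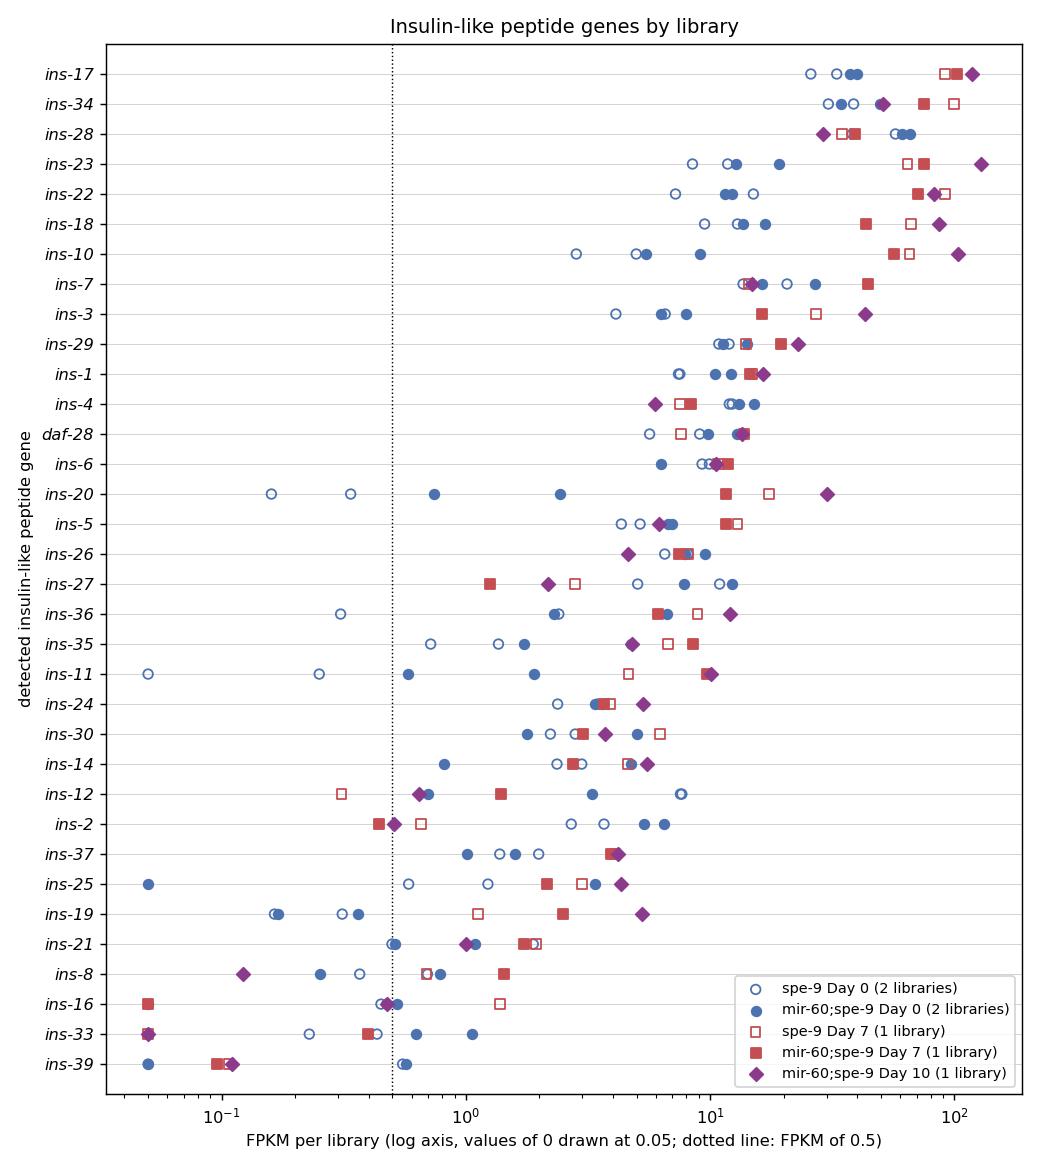
FPKM of the 34 detected insulin-like peptide genes (log axis, values of 0 drawn at 0.05) in the 7 libraries, with circles for Day 0, squares for Day 7, diamonds for Day 10, open symbols for *spe-9* and filled symbols for *mir-60;spe-9*. Genes are ordered by their mean over all libraries, and for 14 of them the 3 later libraries lie wholly above the 4 Day 0 libraries, as for *ins-10*, *ins-20* and *ins-22*, against 31.3% of all genes tested.

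The family as a whole carried more FPKM after Day 0. Summed over the 40 genes, the level was 302 and 232 FPKM in the 2 *spe-9* Day 0 libraries, 376 and 308 in the 2 *mir-60;spe-9* Day 0 libraries, 701 in *spe-9* Day 7, 673 in *mir-60;spe-9* Day 7 and 829 in *mir-60;spe-9* Day 10. All 3 later sums were above all 4 Day 0 sums. A few genes held most of it: the 6 highest members took 57.1% of the mean summed FPKM at Day 0 and 66.9% later. *ins-28* was at rank 1 at Day 0 with 18.3% of the sum and was at rank 7 later with 4.67%, whereas *ins-10* went from rank 17 with 1.84% to rank 5 with 10.3%. The rank of *ins-28*, the shortest member (204 bases), rests on 46 to 77 reads per Day 0 library, whereas *ins-34* (417 bases) had 336 to 499, so their order depends on that length correction. *ins-17* and *ins-34* were among the 4 highest members at both stages.

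Levels of cell type markers moved with stage, and these values stand beside every comparison with Day 0 below. All 6 intestinal markers, all 5 body wall muscle markers and 9 of 10 germline markers were lower after Day 0, with summed levels of 281 to 334 against 81.0 to 102 FPKM for intestine and 1692 to 2300 against 239 to 404 FPKM for muscle. Germline markers summed to 2478 to 3265 against 704 to 1290 FPKM, with *oma-2* listed at 0 in both later double mutant libraries. Of 10 neuronal markers, 4 were higher, 1 was lower and 5 did not pass the test, with a median log2 difference of 0.07. Their summed level was 992 to 1061 against 1398 to 1654 FPKM. Most of that sum was *snb-1*, at 851 to 890 FPKM at Day 0 and 1223 to 1458 later. Sperm markers summed to 22.8 to 53.7 FPKM at Day 0 and 13.8 to 20.6 later, and 3 of the 5 tested were lower. Hypodermal markers summed to 1170 to 2058 FPKM at Day 0, nearly all of it *col-19*, and to 14.5 to 16.02 FPKM later. Of 3 hypodermal markers tested 2 were lower, and *elt-3* did not pass (log2 difference -0.29). *dpy-7* was at 0 in *mir-60;spe-9* Day 7. What part these shifts have in the changes of the insulin-like peptide genes was not tested.

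The first question was which members differed between young adults and animals kept on PQ. Among the 34 detected members, 30 had a mean of at least 1 FPKM over the 7 libraries and entered the test, and *ins-8*, *ins-16*, *ins-33* and *ins-39* did not. Of these 30, 14 were higher and 4 were lower after Day 0 in a limma fit on log2(FPKM + 0.5) with strain as a term (adjusted p below 0.05 over all 13745 genes). Across all genes tested 30.9% were higher and 27.6% were lower, so changed genes were common everywhere. The 3 later libraries lay wholly above the 4 Day 0 libraries for 14 members and wholly below for 3, where 31.3% of all genes tested lay above and 30.0% below. The median log2 difference was 0.72 for the 30 members, 0.004 for all genes and 0.30 for the 2330 tested genes with coding lengths of 200 to 500 bases, of which 41.7% were higher. The members *ins-11*, *ins-19*, *ins-20* and *ins-21* passed the level filter only through the later libraries and *ins-2* and *ins-12* only through Day 0, so that a difference was built into their selection. Of the 14 higher members, 11 passed the filter at both stages, and *ins-2* is 1 of the 4 lower members. All later log2 differences below are on the log2(FPKM + 0.5) scale, which understates changes of low genes, and are given with the limma standard error (SE) and an adjusted p. Single-gene permutation of 4 against 3 libraries cannot give a two-sided p below 0.0571.

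**Figure D2:**
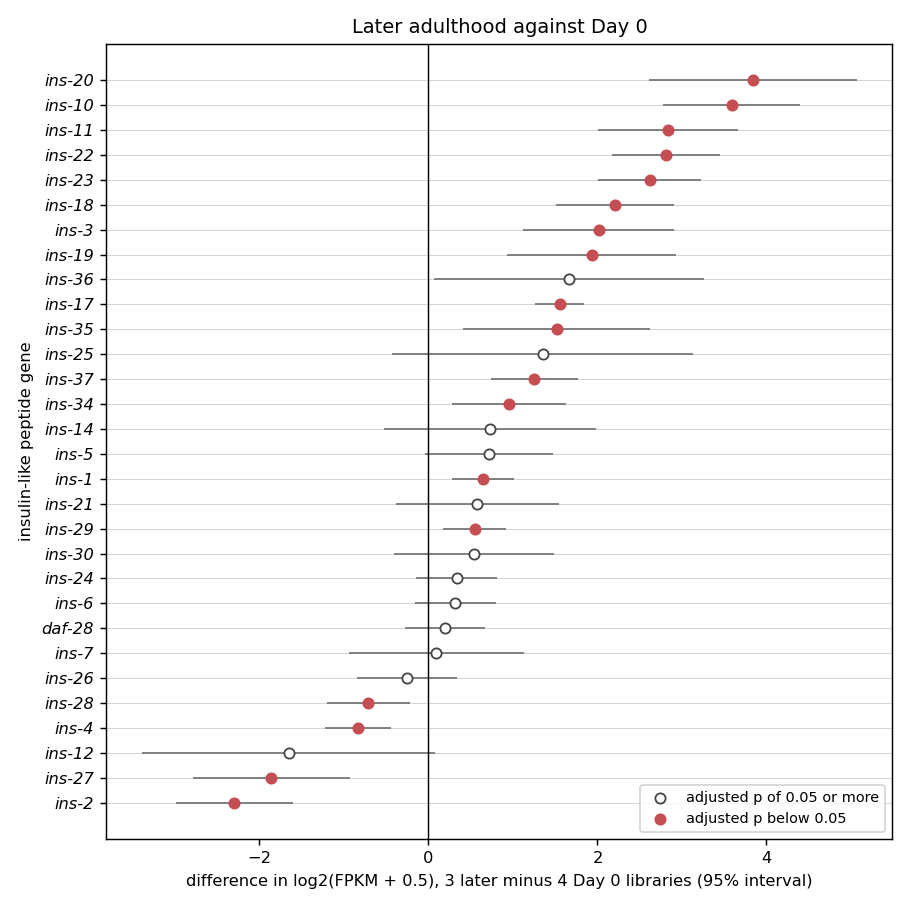
Difference in log2(FPKM + 0.5) between the 3 later libraries and the 4 Day 0 libraries for the 30 tested members, with 95% limma intervals and filled symbols for adjusted p below 0.05. The 14 members that were higher run from *ins-29* at 0.55 to *ins-20* at 3.84, and the 4 that were lower from *ins-28* at -0.71 to *ins-2* at -2.30. *ins-20* passed the level filter only through the later libraries and *ins-2* only through Day 0.

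The known DAF-2 agonists did not move as one group. *daf-28*, expressed in sensory neurons where it opposes dauer entry, was at 9.06 and 5.65 FPKM in *spe-9* Day 0, at 12.9 and 9.85 in *mir-60;spe-9* Day 0, and at 7.60, 13.8 and 13.5 FPKM in *spe-9* Day 7, *mir-60;spe-9* Day 7 and *mir-60;spe-9* Day 10. Its stages overlapped, with a log2 difference of 0.19 ± 0.19 (SE, adjusted p = 0.420). *ins-6*, an agonist that promotes dauer exit, was equally flat, with 9.27, 9.93, 10.6 and 6.31 FPKM at Day 0 and 10.8, 11.8 and 10.5 FPKM later (0.32 ± 0.19, adjusted p = 0.204). *ins-4*, another neuronal agonist, was at 12.3, 11.98, 13.2 and 15.1 FPKM at Day 0 and at 7.54, 8.38 and 5.92 FPKM later. Every later value of *ins-4* was below every Day 0 value, and it fell by 0.83 ± 0.16 on the log2 scale (adjusted p = 0.00561).

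*ins-3*, an agonist that acts with *ins-33* to promote germline proliferation in larvae, went the other way. It was at 6.55, 4.11, 7.95 and 6.27 FPKM at Day 0 and at 27.2, 16.3 and 42.9 FPKM later, from 25 to 44 reads per library up to 114 to 260. The 2 stages did not overlap, and the difference was 2.01 ± 0.36 (adjusted p = 0.00472). With the double mutant libraries alone, an alternative chosen after seeing the data, the difference was 1.84 and no longer passed (adjusted p = 0.0603). *ins-35*, an intestinal agonist, was at 1.36 and 0.718 FPKM in *spe-9* Day 0, 4.73 and 1.72 in *mir-60;spe-9* Day 0, and 6.74, 8.55 and 4.80 FPKM later. Its lowest later value, at Day 10, lay just above its highest Day 0 value, and the difference was 1.52 ± 0.45 (adjusted p = 0.0293). The *ins-35* call was lost without *spe-9* Day 0 replicate 1 (adjusted p = 0.0592), *spe-9* Day 0 replicate 2 (0.0608), *mir-60;spe-9* Day 0 replicate 2 (0.0909), *spe-9* Day 7 (0.170) or *mir-60;spe-9* Day 7 (0.0675).

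*ins-7*, an agonist of intestine and neurons that DAF-16 represses in a feedback loop, did not change with stage but had 1 library far above the others. It was at 20.6 and 13.6 FPKM in *spe-9* Day 0, 26.9 and 16.2 in *mir-60;spe-9* Day 0, 14.4 in *spe-9* Day 7, 44.3 in *mir-60;spe-9* Day 7 and 14.9 in *mir-60;spe-9* Day 10. The later mean of 24.5 ± 17.1 FPKM (SD, n = 3) covers the Day 0 mean of 19.4 ± 5.79 (SD, n = 4), and the log2 difference was 0.09 ± 0.42 (adjusted p = 0.863).

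The next 4 members, *ins-17*, *ins-18*, *ins-23* and *ins-1*, are described as DAF-2 antagonists and were each called higher after Day 0, a grouping made with these results known in a family of short genes, of which 41.7% were higher. *ins-17* was at 32.99, 25.8, 39.8 and 37.5 FPKM at Day 0 and at 91.7, 103 and 118 FPKM later, from 161 to 227 reads up to 588 to 735. This was the highest mean FPKM of any member after Day 0, 3.06-fold above its Day 0 mean (log2 difference 1.55 ± 0.12, adjusted p = 0.000222). *ins-18* was at 12.9, 9.49, 16.8 and 13.6 FPKM at Day 0 and at 66.6, 43.6 and 86.8 later (2.21 ± 0.28, adjusted p = 0.00126). *ins-23* was at 11.8, 8.47, 19.1 and 12.8 FPKM at Day 0 and at 64.4, 75.1 and 128 later (2.62 ± 0.25, adjusted p = 0.000444). In each of these 3 genes the lowest later value was far above the highest Day 0 value. *ins-1*, the member closest in structure to human insulin and required for learning, rose least of the 4: it was at 7.42, 7.52, 12.2 and 10.5 FPKM at Day 0 and at 14.9, 14.6 and 16.5 FPKM later (0.64 ± 0.15, adjusted p = 0.0116). The *ins-1* call was lost without *spe-9* Day 7 (0.44, adjusted p = 0.0619), with the double mutant libraries alone (0.44, adjusted p = 0.128) and after scaling to the neuronal markers (0.31, adjusted p = 0.0821), the last 2 chosen after seeing the data.

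*ins-22*, whose tagged product is a standard reporter of dense core vesicle release from worm neurons, was at 15.04, 7.22, 11.5 and 12.3 FPKM at Day 0 and at 91.5, 71.1 and 82.4 FPKM later. The later mean of 81.7 ± 10.2 FPKM (SD, n = 3) was 7.10-fold the Day 0 mean of 11.5 ± 3.24 (SD, n = 4), and the log2 difference was 2.81 ± 0.26 (adjusted p = 0.000405). *ins-11*, an intestinal member that responds to pathogenic bacteria, was almost absent at Day 0, with 1, 0, 2 and 7 reads. It was at 0.251 and 0 FPKM in *spe-9* Day 0, at 0.582 and 1.91 in *mir-60;spe-9* Day 0 and at 4.63, 9.70 and 10.1 FPKM in the later libraries, with 18, 42 and 38 reads (2.84 ± 0.34, adjusted p = 0.000971). *ins-11* entered the test only through its later values. The 6 intestinal markers were lower at that stage, and their part in the *ins-11* values was not tested.

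Other members whose roles are less settled included the largest changes of the family. *ins-20* was at 0.160 and 0.338 FPKM in *spe-9* Day 0, at 0.741 and 2.43 in *mir-60;spe-9* Day 0, and at 17.4, 11.6 and 30.1 FPKM later. Reads on *ins-20* numbered 1, 2, 4 and 14 at Day 0 against 106, 79 and 178 later, and the log2 difference of 3.84 ± 0.50 was the largest among the tested members (adjusted p = 0.00136). Both *ins-20* and *ins-19* entered the test only through their later values, so that a difference was built into their selection. *ins-10* was at 2.83, 4.98, 9.12 and 5.47 FPKM at Day 0 and at 65.5, 56.4 and 103.9 FPKM later. The *ins-10* mean thus went up 13.4-fold with 9 to 25 reads per library behind the Day 0 values (log2 difference 3.59 ± 0.33, adjusted p = 0.000406). *ins-19* was at 0.312, 0.165, 0.361 and 0.169 FPKM at Day 0, at 1 or 2 reads each, and at 1.12, 2.51 and 5.28 FPKM later (1.93 ± 0.41, adjusted p = 0.00840). *ins-37* was at 1.99, 1.38, 1.58 and 1.01 FPKM at Day 0 and at 4.07, 3.94 and 4.20 later (1.25 ± 0.21, adjusted p = 0.00347). The 3 later values of *ins-37* were nearly equal, and all were above the Day 0 values.

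Increases of *ins-34* and *ins-29* were small and less stable. *ins-34*, the member with the most reads (336 to 1132 per library), was at 38.7, 30.5, 49.7 and 34.5 FPKM at Day 0 and at 99.8, 75.2 and 50.9 FPKM later. Its Day 10 value was only just above the highest Day 0 value, and the difference was 0.95 ± 0.28 (adjusted p = 0.0265). The *ins-34* call was lost without *spe-9* Day 7 (0.57, adjusted p = 0.151), *mir-60;spe-9* Day 7 (0.0610), *spe-9* Day 0 replicate 1 (0.0580) or 2 (0.0544) or *mir-60;spe-9* Day 0 replicate 2 (0.0769). *ins-29* was at 10.9, 11.96, 14.2 and 11.3 FPKM at Day 0 and at 14.0, 19.5 and 23.0 later, so the stages overlapped (0.55 ± 0.15, adjusted p = 0.0231). Its call was lost without *spe-9* Day 0 replicate 1 (adjusted p = 0.0548) or without either *mir-60;spe-9* Day 0 replicate (0.0531 and 0.0693). It was also lost after median centring (0.0511) or quantile normalization (0.0667) and with the double mutant libraries alone (0.0589), and scaling to neuronal markers left a difference of 0.21 (adjusted p = 0.358).

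The lower members were fewer. *ins-2* was at 3.68, 2.70, 6.49 and 5.39 FPKM at Day 0 and at 0.656, 0.441 and 0.507 later, from 16 to 35 reads down to 3 or 4. Its mean fell 8.53-fold, and *ins-2* decreased by 2.30 ± 0.28 on the log2 scale (adjusted p = 0.00109). However, *ins-2* entered the test only through its Day 0 values. *ins-27* was at 10.9, 5.05, 12.3 and 7.80 FPKM at Day 0 and at 2.80, 1.26 and 2.17 later, and it fell by 1.86 ± 0.38 (adjusted p = 0.00733). In both genes every later value was below every Day 0 value. *ins-28*, the member with the highest FPKM in young adults, was at 57.4, 38.2, 61.0 and 65.8 FPKM at Day 0 and at 34.7, 39.0 and 29.1 later. *ins-28* overlapped between stages through 1 *spe-9* Day 0 library, fell by 0.71 ± 0.20 (adjusted p = 0.0242), and lost its call without *spe-9* Day 0 replicate 1 (0.0564), without *mir-60;spe-9* Day 0 replicate 1 (0.0714) or 2 (0.0805), or without *mir-60;spe-9* Day 10 (0.0538).

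Another 3 members changed by 2-fold or more between stage means without passing the test. *ins-36* was at 2.40, 0.307, 6.66 and 2.29 FPKM at Day 0 and at 8.88, 6.09 and 12.1 later (1.66 ± 0.65, adjusted p = 0.0696). Its reads numbered only 3, 1, 4 and 2 at Day 0 and 14, 7 and 13 later. On a 171-base transcript of this gene 1 read counts for 1.68 to 2.11 FPKM, and 9.63 of the 12.1 FPKM at Day 10 were 5 such reads. On its 264-base transcript the stages did not overlap (0.307 to 0.582 against 1.07 to 3.28 FPKM). *ins-36* overlaps *Y53H1A.7*, itself at up to 8.90 FPKM, so its reads may be shared. *ins-25* was at 0.583, 1.23, 3.38 and 0 FPKM at Day 0, with at most 5 reads, and at 2.99, 2.15 and 4.32 later (1.35 ± 0.73, adjusted p = 0.156). *ins-12* was at 7.56 and 7.66 FPKM in *spe-9* Day 0 and at 0.310, 1.39 and 0.640 later, but 1 Day 0 double mutant library was already at 0.701 (log2 difference -1.65 ± 0.71, adjusted p = 0.0896). Without *mir-60;spe-9* Day 0 replicate 1 all 3 passed (*ins-36* 2.16, adjusted p = 0.0386; *ins-25* 2.09, 0.0227; *ins-12* -2.35, 0.0179), as did *ins-30* (0.96, 0.0202), and *ins-36* also passed without *mir-60;spe-9* Day 7 (2.05, 0.0478). *ins-5* passed only without *mir-60;spe-9* Day 10 (1.04, adjusted p = 0.00785) or after median centring (0.75, 0.0385), being at 4.33 to 6.98 FPKM at Day 0, at 12.9 and 11.6 at Day 7 and at 6.18 at Day 10. The remaining tested members, *ins-14*, *ins-21*, *ins-24* and *ins-26*, had differences from -0.25 to 0.73, and none passed, although the later values of *ins-24* (3.90, 3.66 and 5.31 FPKM) were all above Day 0 (2.37 to 3.61 FPKM).

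Many members sit side by side on the chromosomes, and neighbours did not share 1 direction. The coordinates are those of the deposited matrix (WS220 assembly). On chromosome II, 6 genes lie within 22.7 kb from 5988512 to 6011205, in the order *ins-2*, *ins-3*, *ins-4*, *ins-5*, *ins-6* and *ins-20*. Of these, *ins-3* and *ins-20* were higher later, *ins-2* and *ins-4* were lower and *ins-5* and *ins-6* did not pass, although *ins-2* and *ins-3* are only 1126 bases apart. The directions of *ins-20* and *ins-2* were built into their selection, as *ins-20* passed the level filter only through the later libraries and *ins-2* only through Day 0. *ins-3* and *ins-4* passed it at both stages. On chromosome I, 7 genes lie within 25.3 kb from 14012451 to 14037753. There *ins-29* was higher, *ins-28* and *ins-27* were lower and *ins-25*, *ins-24*, *ins-30* and *ins-26* did not pass. The chromosome III group of *ins-21*, *ins-22* and *ins-23* (10023715 to 10028464) held a pair that rose together, *ins-22* and *ins-23*, next to *ins-21*, which had 1 to 4 reads per library and did not pass (0.58 ± 0.39, adjusted p = 0.247).

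**Figure D3:**
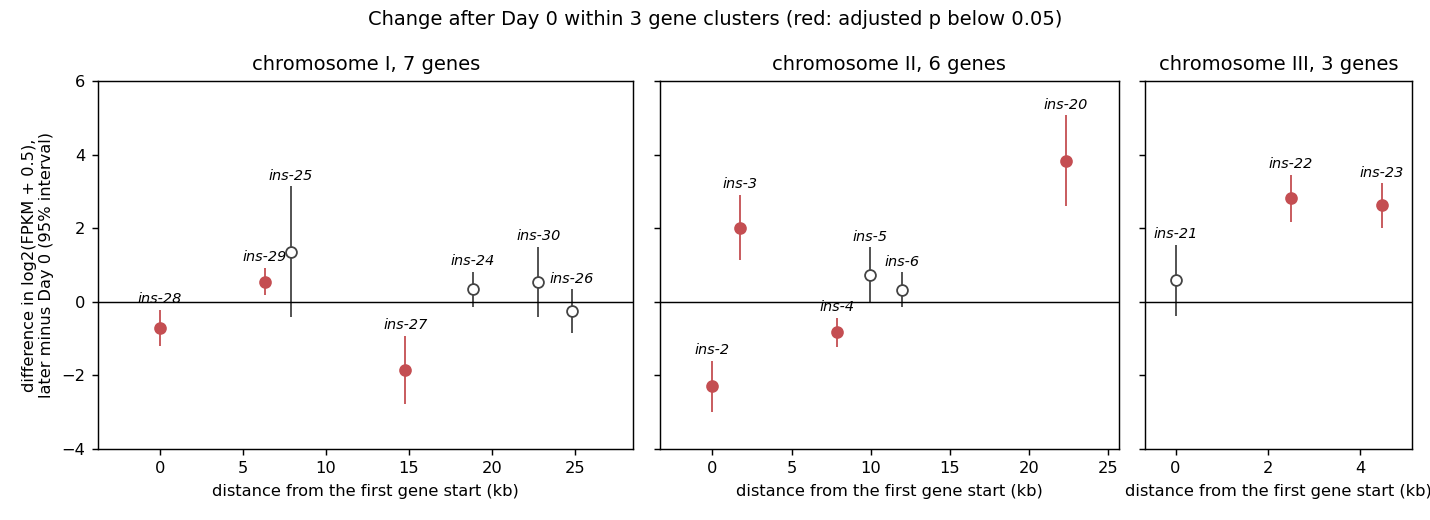
Difference in log2(FPKM + 0.5), later minus Day 0, with 95% limma intervals, against the distance in kb from the first gene start in 3 groups of neighbouring genes (red: adjusted p below 0.05). In the chromosome II group *ins-2* at -2.30 and *ins-3* at 2.01 stand next to each other, and *ins-20* at 3.84 lies at the far end. *ins-2* passed the level filter only through Day 0 and *ins-20* only through the later libraries.

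The second question was whether loss of *mir-60* changed the family in young adults. No member did so past the threshold: of the 26 members with a mean of at least 1 FPKM over the 4 Day 0 libraries, 0 were called by limma, against 0.742% (97) of 13068 genes, and 5 had an unadjusted p under 0.05 (15% of all genes had). Among the 34 detected members, the 2 double mutant libraries lay wholly above the 2 *spe-9* libraries for 14 and wholly below for 1, and of all genes tested 27.1% lay above and 24.5% below. These sets are unlike, as 8 of the 34 members were below the level filter of the tested genes. *ins-11*, *ins-20* and *ins-33*, which are among the 14, were below it. The median log2 difference (double mutant minus *spe-9*) was 0.34 for the 26 members, with 22 above 0, and 0.01 for all genes. Neuronal markers had a like median of 0.35, with 9 of 9 above 0, muscle markers 0.34 (5 of 5) and intestinal markers 0.38 (5 of 6). Hypodermal markers (0.89, 3 of 4) and sperm markers (1.55, 4 of 5) were further above 0. Germline markers were at -0.15 (0 of 10 above 0), and none of the markers on these lists was called. Scaling each library to its neuronal markers, an alternative chosen after seeing the data, moved the median of all genes from 0.01 to -0.33, and that shift alone left 13 members above 0 and 13 below.

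**Figure D4:**
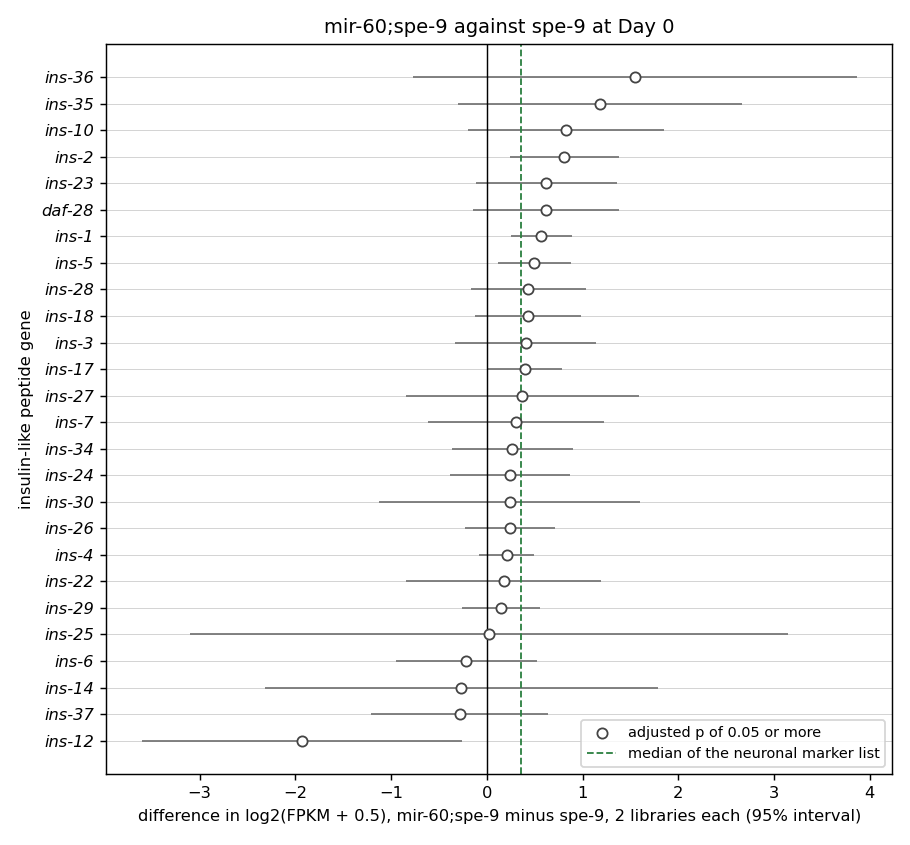
Difference in log2(FPKM + 0.5) between *mir-60;spe-9* and *spe-9* at Day 0 (2 libraries each) for 26 members, with 95% limma intervals, the dashed line marking the median of the neuronal markers at 0.35. The open symbols show that no member had an adjusted p below 0.05, and 22 of the 26 lie above 0.

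The members with the smallest p at Day 0 were *ins-1*, *ins-2*, *ins-5*, *ins-12* and *ins-17*. *ins-1* was at 7.42 and 7.52 FPKM in *spe-9* and 12.2 and 10.5 in the double mutants, a difference of 0.57 ± 0.11 (adjusted p = 0.156). *ins-2* was at 3.68 and 2.70 against 6.49 and 5.39 FPKM (0.81 ± 0.21, adjusted p = 0.216), and *ins-5* at 4.33 and 5.17 against 6.98 and 6.75 FPKM (0.49 ± 0.14, adjusted p = 0.250). *ins-17* was at 32.99 and 25.8 against 39.8 and 37.5 FPKM (0.40 ± 0.14, adjusted p = 0.325). In each of these 4 genes both double mutant libraries were the higher ones. *ins-12* was the exception in direction, with 7.56 and 7.66 FPKM (25 and 24 reads) in *spe-9* against 0.701 and 3.29 FPKM (2 and 10 reads) in the double mutants (-1.93 ± 0.60, adjusted p = 0.288). The *ins-12* interval ran from -3.60 to -0.26, and that of *daf-28*, at 9.06 and 5.65 against 12.9 and 9.85 FPKM, from -0.14 to 1.38 (0.62 ± 0.27, adjusted p = 0.390). With 2 libraries per strain, *ins-35* (1.18 ± 0.54, adjusted p = 0.394) and *ins-36* (1.55 ± 0.83, adjusted p = 0.437) had intervals from -0.31 to 2.67 and from -0.77 to 3.86. The *ins-36* values rested on 3 and 1 reads in *spe-9* against 4 and 2 in the double mutants. Exact permutation of 2 against 2 libraries cannot give a two-sided p below 0.333.

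At Day 7 each strain had 1 library, so intervals are 95% exact intervals for counting error of the estimated reads only. By the study's lifespan assays *spe-9* was then near its median survival time and the double mutants were not, so strain and survival stage cannot be told apart. Counted on the log2(FPKM + 0.5) scale, which damps low values, 2 of the 34 detected members were past 2-fold higher in the double mutants (*ins-7* and *ins-12*) and 1 was past 2-fold lower (*ins-16*). Of the 30 members that passed the level filter, 2 were higher and 0 lower, where 4.02% of 13745 genes were higher and 5.57% lower. On plain FPKM, the scale of the ratios below, *ins-8*, *ins-11* and *ins-19* were also past 2-fold higher and *ins-27* and *ins-30* past 2-fold lower. The members had a median log2 difference of -0.06 at this stage, against -0.01 for all genes, and 20 of 34 were below 0. The share of all genes below 0 was not computed, so this count cannot be read as a trait of the family. *ins-7* was at 14.4 FPKM from 111 reads in *spe-9* and 44.3 FPKM from 380 reads in *mir-60;spe-9*, a ratio of 3.07 (2.48 to 3.83). *ins-12* rested on 1 and 5 reads (0.310 against 1.39 FPKM, ratio 4.49, 0.502 to 212), and *ins-16* on 3 and 0 reads, which are too few for a fold. *daf-28* was at 7.60 against 13.8 FPKM (ratio 1.82, 1.20 to 2.79) and *ins-11* at 4.63 against 9.70 FPKM (2.09, 1.18 to 3.86), both higher in the double mutants than counting error allows.

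Some members that were called higher after Day 0 were lower in the double mutants than in *spe-9* at Day 7. *ins-3* was at 16.3 against 27.2 FPKM (ratio 0.602, 0.470 to 0.767) and *ins-18* at 43.6 against 66.6 FPKM (0.655, 0.547 to 0.783). *ins-20* was at 11.6 against 17.4 FPKM (0.669, 0.493 to 0.903). *ins-34* (0.753, 0.691 to 0.822) and *ins-22* (0.777, 0.647 to 0.932) differed less. *ins-30*, which had not passed the test against Day 0, was at 3.01 against 6.23 FPKM (0.483, 0.294 to 0.779). Among the other members called higher after Day 0, *ins-1* (14.6 against 14.9 FPKM, 0.979), *ins-37* (0.967) and *ins-10* (0.862) were near or below 1. *ins-17* (103 against 91.7 FPKM, 1.12), *ins-23* (75.1 against 64.4 FPKM, 1.17), *ins-35* (1.27), *ins-29* (1.39), *ins-11* (2.09) and *ins-19* (2.24) were above 1. The counting intervals of *ins-1*, *ins-37*, *ins-10*, *ins-23*, *ins-35*, *ins-29* and *ins-19* included 1. The spread between cultures at Day 7 is unknown, while the 2 *spe-9* Day 0 libraries alone were at 15.04 and 7.22 FPKM for *ins-22*.

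Between Day 7 and Day 10 in the double mutants, 2 of the 34 detected members were past 2-fold higher on the log2(FPKM + 0.5) scale (*ins-3* and *ins-20*) and 2 past 2-fold lower (*ins-7* and *ins-8*). Of the 30 members that passed the level filter, which *ins-8* did not, 2 were higher and 1 lower, where 4.53% of 13745 genes were higher and 5.35% lower. On plain FPKM *ins-14*, *ins-19* and *ins-25* were also past 2-fold higher and *ins-12* past 2-fold lower, and of these only *ins-19* (2.51 to 5.28 FPKM, ratio 2.103, 1.17 to 4.16) had a counting interval clear of 1. *ins-3* went from 16.3 to 42.9 FPKM (ratio 2.62, 2.097 to 3.30) and *ins-20* from 11.6 to 30.1 FPKM (2.59, 1.98 to 3.42). *ins-7* went from 44.3 back to 14.9 FPKM (0.336, 0.269 to 0.416), within its Day 0 range, and *ins-8*, its neighbour 1122 bases away on chromosome IV, went from 1.43 to 0.123 FPKM on 13 and 1 reads. Several members continued in the direction they had taken since Day 0: *ins-10* went from 56.4 to 103.9 FPKM (1.84, 1.53 to 2.21), *ins-18* from 43.6 to 86.8 FPKM (1.99, 1.68 to 2.37) and *ins-23* from 75.1 to 128 FPKM (1.71, 1.40 to 2.08). *ins-34* went from 75.2 to 50.9 FPKM (0.677, 0.609 to 0.753) and *ins-5* from 11.6 to 6.18 FPKM (0.532, 0.336 to 0.826), back towards Day 0. *daf-28* stayed near its Day 7 level, at 13.8 and 13.5 FPKM (0.977, 0.685 to 1.39).

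**Figure D5:**
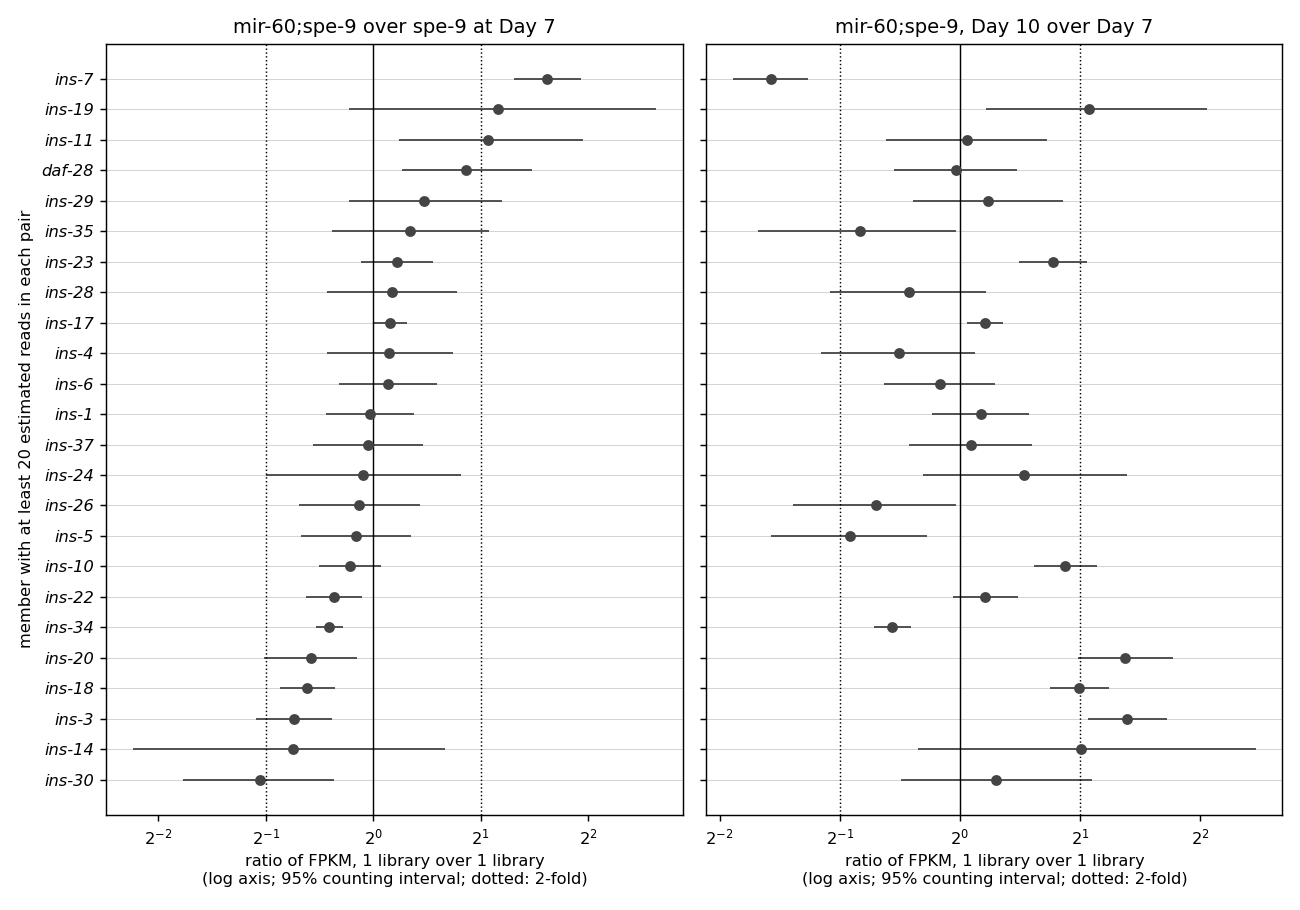
Ratio of FPKM between single libraries for the 24 detected members with at least 20 estimated reads in each pair, *mir-60;spe-9* over *spe-9* at Day 7 (left) and *mir-60;spe-9* Day 10 over Day 7 (right), with 95% counting intervals and dotted lines at 2-fold. *ins-7* stands at 3.07 on the left and 0.336 on the right, and *ins-3* and *ins-20* are below 1 on the left and above 2 on the right.

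Genes that process and release these peptides and genes of the receptor pathway were counted in the same fit, in which 30.9% of all genes were higher after Day 0 and 27.6% lower. Of 6 proprotein processing genes 3 were higher and 0 lower: *egl-3*, the prohormone convertase, with a log2 difference of 0.58 ± 0.07 (adjusted p = 0.00114), *egl-21*, the carboxypeptidase, with 0.43 ± 0.08 (adjusted p = 0.00408), and *sbt-1*, the EGL-3 chaperone, with 0.95 ± 0.10 (adjusted p = 0.000670). Of 6 dense core vesicle and secretion genes 4 were higher and 0 lower, among them *ida-1*, a dense core vesicle membrane protein (1.23 ± 0.10, adjusted p = 0.000308), and *asna-1*, which promotes insulin secretion (1.99 ± 0.12, adjusted p = 0.000106). *asna-1* was at 120 to 126 FPKM in the 4 Day 0 libraries and at 447 to 597 FPKM in the 3 later ones. Of 13 receptor and intracellular pathway genes 3 were higher and 6 lower. The receptor gene *daf-2* fell by 0.48 ± 0.15 (adjusted p = 0.0350) and *age-1* fell by 1.22 ± 0.16 (adjusted p = 0.00128), while *daf-16* did not pass (0.29 ± 0.11, adjusted p = 0.0635). *egl-21* and 2 of the secretion genes are also on the neuronal marker list. None of the genes on these lists was called between strains at Day 0.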

How the data were processed

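Whole-animal mRNA libraries (stranded kit, total RNA) were sequenced in 2 runs each, and the authors merged the runs, so that 14 GEO samples gave 7 libraries. Per the study's methods, the authors aligned reads to the WS220 genome with TopHat2 (version 2.1.0) and Bowtie2 (2.1.0) and computed the deposited FPKM values per RefSeq transcript with Cufflinks (2.2.1). The length column of the deposited matrix, a value of another kind in bases, holds coding lengths without UTRs (97.8% of mRNA entries are multiples of 3). Whether counting used strand is not given in the sources used here.

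FPKM was summed per gene, log2(FPKM + 0.5) was fitted with limma 3.58.1 in R 4.3.3 with a variance trend, for genes whose mean FPKM reached 1, and p-values were adjusted by Benjamini-Hochberg over all genes tested and called at an adjusted p below 0.05. Day 0 isolations were independent per the study's methods. Reads were estimated from FPKM steps, and 225 of 226 values above 0 of the 37 single-transcript members (99.6%) came out whole within 0.05 read or 0.1%. These intervals cover counting error only. The fits were checked on simulated data. Members, lists and tests were chosen with earlier results of these data known. By the fixed rule for named genes, members called in either fit, members with a 2-fold difference between stage means, members past 2-fold at Day 7 and 7 well-studied members were given in full. Alternatives covered the pseudocount, filter, scaling, transcript choice, trend, replicate block and each library left out.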

Additional observations from a re-analysis of the deposited data

Results flagged for a closer look

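In 7 members the strains were ordered one way by all 4 Day 0 libraries and the other way by the Day 7 libraries. They come from the 14 detected members that were wholly higher in the double mutants at Day 0 and the 1 that was wholly lower. The share of all genes that reverse in this way was not computed, so the count cannot be read as a trait of the family. A difference in the strain effect between stages was not tested, and Day 7 has 1 library per strain. For *ins-1*, *ins-2*, *ins-5*, *ins-10*, *ins-18* and *ins-20* the double mutants were higher at Day 0 and lower at Day 7, with Day 7 log2 differences (double mutant minus *spe-9*) of -0.029, -0.30, -0.15, -0.21, -0.61 and -0.56. The values of *ins-18* and *ins-20* exceed counting error at Day 7, whereas *ins-2* rests on 3 and 4 reads there. For *ins-12* the double mutants were lower at Day 0 and higher at Day 7 (1.22), on 5 and 1 reads. *ins-26* moved in opposite directions from Day 0, up in *spe-9* at Day 7 (0.16 on the log2 scale) and down in *mir-60;spe-9* at Day 7 (-0.21) and Day 10 (-0.85), and this too was not tested.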

How the results depend on the processing

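The count of 34 detected members ranged from 30 to 38 under the other detection rules. No member was called between strains at Day 0 under any of the 15 alternatives, including the fit with a replicate block (0 members called), and leaving out any 1 library gave 0. Leaving out 1 library leaves a strain with a lone library, assumed to vary like the other strain, and its 0 says nothing about stability. The labels tie no replicate numbers to a shared culture. Deviations of same-numbered Day 0 libraries correlated at 0.08 over all genes tested. With 2 libraries per strain the other pair only mirrors this value. All 10 germline markers were higher in replicate 2 in both strains, and *col-19* was higher in replicate 1 in both. Whether same-numbered libraries share a shift of some genes was not tested. In the limma fit with a replicate block the adjusted p was 0.0897 for *ins-1*, 0.0722 for *ins-2* and 0.131 for *ins-17*. After Day 0 the count of higher members was 14 and ranged from 11 to 16 when 1 library was left out, and that of lower members was 4 and ranged from 3 to 4. With the *mir-60;spe-9* libraries alone, chosen after seeing the data, 9 members were higher. Scaling to neuronal markers, also chosen afterwards and shifting the median of all genes to -0.33, gave 12 higher and 5 lower. Of the 18 called members, 12 passed under every alternative in which they were tested, and no called member reversed. *ins-19*, 1 of the 12, fell below the level filter without *mir-60;spe-9* Day 10 and was not tested there. Without a level filter *ins-33* was called lower as well (-0.88, adjusted p = 0.0398), and *ins-26* was called lower only after neuronal scaling (-0.59, adjusted p = 0.0426). Counts past 2-fold between single libraries depended on the pseudocount. At Day 7 the higher count went from 2 to 5 with a pseudocount of 0.1 and to 1 with a pseudocount of 1, and the lower count from 1 to 3 with 0.1. From Day 7 to Day 10 both counts went from 2 to 4 with 0.1. The cause was not tested.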
